A study of Mus musculus with 12 samples.

Results

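In the E12.5 mouse forebrain, 4445 of 55385 promoter windows (8.03%) carried an H3K27ac summit and a binding summit of Eed with no H3K27me3 summit beside them. They were chosen on measured values: the window centre, an annotated transcription start, had to lie within 1 kb of a wild type H3K27ac summit and of a wild type Eed summit and of no wild type H3K27me3 summit. They are called the Eed-bound active promoters here. The name stands for the nearby summit only, since wild type Eed lay below its input at 749 of them. Of 5683 windows with a wild type H3K27ac summit, 672 also had an H3K27me3 summit, and 88.7% of the other 5011 had an Eed summit, which left 566 active promoters without one. All were untreated C57BL/6 embryos, and the tissue was forebrain, labelled E12.5 for the day of embryonic development. The wild type and the genotype labelled EedcKO each gave 1 library of Eed and 1 of its input by cross-linked chromatin immunoprecipitation (X-ChIP), sequenced on the BGISEQ-500. Each also gave 1 library of H3K27me3, H3K27ac, RNA polymerase II (RNA-Pol2) and IgG by CUT&Tag, in which a transposase tethered to the antibody cuts the DNA beside it, sequenced on the NovaSeq. The sources used here do not give the deleted part of Eed, the Cre driver, the cells that still carry Eed, the sex or the number of embryos behind a library. With 1 library per group, no difference below has a replicate check, no test was possible across samples, and intervals cover counting error or the spread across windows only.

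Eed is a WD40-repeat subunit of Polycomb repressive complex 2 (PRC2), in which Ezh2 or Ezh1 methylates lysine 27 of histone H3 and Suz12 holds the complex together. Eed binds H3K27me3 already in place and stimulates the enzyme, so PRC2 is best known at silent developmental genes in CpG islands. H3K27ac sits on the same lysine and cannot coexist with H3K27me3 on 1 histone tail. It marks active promoters and enhancers, where RNA-Pol2 initiates.

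The sequences of 5 promoters are given as examples and do not cover the range of the set. For Zfp664 (zinc finger protein) and Psma7 (alpha subunit of the proteasome core), the Eed count was among the highest or its ratio of EedcKO to wild type among the lowest. Neu1 (lysosomal sialidase) and Bscl2 (seipin, a lipid droplet protein) were among the 6 named promoters with the highest ratio, and Eed is the gene of the antibody's target. Each line holds the 250 bases before the RefSeq start (GRCm38.p6, the build also called mm10), written in the direction of the gene. Capitals mark every match to the promoter motifs whose letters are spelled out after the base composition. The stretches are chr5:124862455-124862704 (plus strand) for Zfp664, chr2:180042465-180042714 (minus) for Psma7, chr7:89980977-89981226 (minus) for Eed, chr17:34931003-34931252 (plus) for Neu1 and chr19:8837217-8837466 (plus) for Bscl2.
Zfp664: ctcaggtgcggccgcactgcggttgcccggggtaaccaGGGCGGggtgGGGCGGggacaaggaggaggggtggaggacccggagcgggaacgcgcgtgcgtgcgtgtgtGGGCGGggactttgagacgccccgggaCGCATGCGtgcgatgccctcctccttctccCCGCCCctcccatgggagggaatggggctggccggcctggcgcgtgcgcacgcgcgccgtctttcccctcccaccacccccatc
Psma7: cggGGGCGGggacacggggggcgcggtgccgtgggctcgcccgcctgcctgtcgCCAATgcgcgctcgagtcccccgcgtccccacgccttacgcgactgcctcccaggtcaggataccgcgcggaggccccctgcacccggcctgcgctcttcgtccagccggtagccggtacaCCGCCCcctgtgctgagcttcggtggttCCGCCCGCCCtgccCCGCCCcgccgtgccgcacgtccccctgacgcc
Eed: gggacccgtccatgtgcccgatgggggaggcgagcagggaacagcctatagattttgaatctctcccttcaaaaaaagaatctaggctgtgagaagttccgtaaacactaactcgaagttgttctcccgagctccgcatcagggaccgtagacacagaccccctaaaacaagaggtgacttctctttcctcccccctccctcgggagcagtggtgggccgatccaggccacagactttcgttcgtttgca
Neu1: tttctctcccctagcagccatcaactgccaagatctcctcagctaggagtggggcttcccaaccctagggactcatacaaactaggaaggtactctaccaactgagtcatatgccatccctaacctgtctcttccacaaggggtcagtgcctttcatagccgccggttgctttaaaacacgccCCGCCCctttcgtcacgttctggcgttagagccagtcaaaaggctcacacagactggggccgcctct
Bscl2: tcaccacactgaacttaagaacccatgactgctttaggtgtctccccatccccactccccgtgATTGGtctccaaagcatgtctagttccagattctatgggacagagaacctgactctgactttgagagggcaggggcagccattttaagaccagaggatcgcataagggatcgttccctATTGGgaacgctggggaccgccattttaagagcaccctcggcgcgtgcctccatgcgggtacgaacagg

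Zfp664 and Psma7 were dense in GC, with CpG ratios of 0.93 and 0.93 over the 300 bases around the start, and with 77.0% G and C in Psma7. This ratio is the number of CG pairs over that given by the C and G content. Neu1 and Bscl2 had 56.3% and 57.3% G and C and CpG ratios of 0.56 and 0.65, and the Eed promoter, with 54.7% and 0.76, held none of the motifs. RefSeq gave a promoter sequence with its start within 1 kb for 3146 of the 4445 windows (70.8%), under the 80% needed. The other windows had no entry in the table or one with its start farther away. The check of base composition is therefore void for the whole set, and the values here describe the matched promoters only. Their median GC content was 63.7% (quartiles 58.3% and 68.7%), against 56.7% over 353 matched active promoters without an Eed summit, 65.0% over 1419 matched H3K27me3 promoters with one and 56.3% over all 17713 matched promoters. The median CpG ratio was 0.84 (interval across promoters 0.83 to 0.85), above the 0.69 (0.65 to 0.72) of active promoters without an Eed summit and the 0.71 (0.70 to 0.73) of H3K27me3 promoters with one.

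Letters of general promoter factors were searched on both strands in the 300 bases. The GC box GGGCGG of SP and KLF factors was in 73.6% of the matched Eed-bound active promoters, 47.6% of the active promoters without an Eed summit, 72.2% of the H3K27me3 promoters with one and 46.3% of all promoters. The ETS letters CCGGAAGT were in 11.9%, 10.5%, 1.13% and 5.36% in the same order, the NRF1 letters CGCATGCG in 5.91%, 4.53%, 0.63% and 2.57%, and the YY1 letters AAGATGGCG in 4.23%, 4.82%, 0.28% and 1.98%. The Wilson intervals of these 3 motifs overlapped between both kinds of active promoter and lay above those of the H3K27me3 promoters. The GC box instead set the active promoters without an Eed summit apart from the other 2 classes. The TATA letters TATAAA were in 4.61%, 7.93% and 7.12% of the 3 classes and in 20.7% of promoters with no summit in any library. ZBTB33 letters CTCGCGAG were in 3.46% against 0.57% of active promoters without an Eed summit (Wilson intervals 2.88% to 4.16% and 0.16% to 2.04%). The CCAAT letters were in 38.4% (Wilson interval 36.7% to 40.1%), fewer than the 48.2% (43.0% to 53.4%) of active promoters without an Eed summit, and in 31.0% of H3K27me3 promoters with one and 38.5% of all promoters. The other letters gave 10.9% for the E-box CACGTG, 4.58% for the CRE TGACGTCA, 2.51% for the E2F letters TTTCCCGC, 0.89% for the RONIN letters ACAATTCCC and 0.73% for the RFX letters GTTGCCATG, beside 8.19%, 2.44%, 1.47%, 0.59% and 0.78% of all promoters. No motif contains another, but matches can overlap in part, and a match is a description and not a binding site.

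The marks that chose the windows gave the levels their names imply, with an exception. At the Eed-bound active promoters, the median count in wild type was 96 in H3K27ac (quartiles 82 and 114, lowest 45, highest 577) and 24 in IgG. In RPKM (reads per kb of window, scaled to the library's promoter total, with 0.5 RPKM added before any ratio), H3K27ac was at a median log2 ratio of 1.53 over IgG. At least 2-fold over IgG lay 3637 windows (81.8%), where 15.9% of all tested promoters did. H3K27me3 in wild type had a median of 45 counts and a log2 ratio to IgG of -0.23. Yet 192 windows (4.32%, against 7.62% of all tested) were at least 2-fold over IgG in H3K27me3, so the lack of an H3K27me3 summit within 1 kb is no proof that the mark was absent. The protein-coding promoters with the most H3K27me3, named after their values were seen, were Cebpa (myeloid and adipose transcription factor, 839 counts, nearest H3K27me3 summit 1232 bp away), Neurog2 (proneural factor, 825 counts, 1311 bp) and Cntnap1 (paranodal adhesion protein, 747 counts, 5365 bp). The 192 had medians of 72 reads in wild type H3K27me3, 14 in IgG and 129.5 in Eed, and the other 4253 had 44, 24 and 105.

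**Figure D1:**
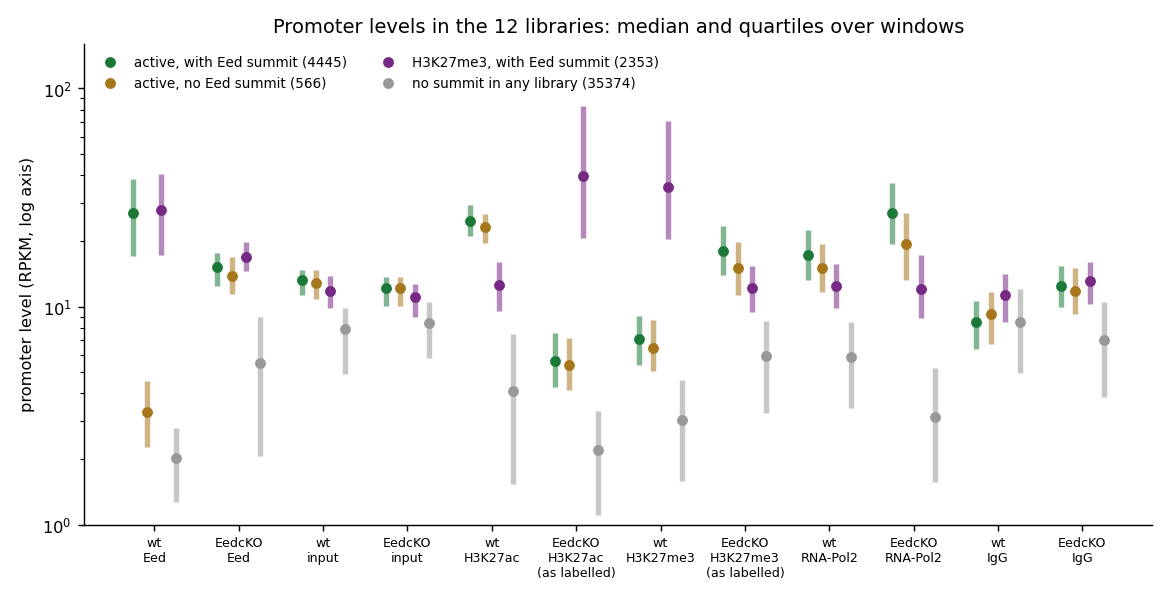
Promoter level in RPKM (log axis) in each of the 12 libraries, as the median (point) and quartiles (bar) over windows, for 4 classes of promoter window. In wild type Eed the Eed-bound active promoters (green) sit at a median of 26.9 RPKM and the active promoters without an Eed summit (brown) at 3.29, while in EedcKO Eed both lie at 15.2 and 13.8.

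In wild type, Eed reads at the Eed-bound active promoters were as many as at the Polycomb promoters. The median count was 106 (quartiles 67 and 151, lowest 12, highest 436), beside 109 at the 2353 H3K27me3 promoters with an Eed summit and 13 at the active promoters without one. Input held 27 reads at the median Eed-bound active promoter and 26 at the active promoters without an Eed summit. Eed over input was 1.01 on the log2 scale at the median Eed-bound active promoter, 1.20 at the H3K27me3 promoters and -1.74 at the active promoters without an Eed summit. At least 2-fold over input were 2245 of 4445 windows (50.5%), against 14.5% of all tested promoters. Below input lay 749 windows, and the median log2 ratio of all tested promoters was -1.32. The wild type Eed summits chose these windows, so these values describe the choice and show nothing beyond it. The score of the nearest Eed summit, the authors' −log10 value, had a median of 47.8 over 3405 summits, near the 49.4 at H3K27me3 promoters and above the 10.3 of all 61019 Eed summits.

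In EedcKO, which the choice did not use, Eed reads at the active promoters with and without a wild type Eed summit lay close together. The median count was 44 (quartiles 36 and 51) at the former and 40 at the latter, with 23 input reads at both. Over input, the median log2 ratio was 0.31 (interval across windows 0.29 to 0.32) at the Eed-bound active promoters and 0.24 (0.17 to 0.29) at the active promoters without an Eed summit, while the H3K27me3 promoters with one stood at 0.60 (0.59 to 0.62). At least 2-fold over input in EedcKO were 259 Eed-bound active promoters (5.83%), close to the 4.71% of all tested promoters. At least 2-fold under input were 18 (0.40%), where 18.1% of all tested promoters were. Below input by any amount lay 1094, and the median log2 ratio of all tested promoters was -0.02. An EedcKO Eed summit lay within 1 kb of 23.1% of the Eed-bound active promoters (Wilson interval 21.9% to 24.3%), of 22.8% (19.5% to 26.4%) of the active promoters without a wild type Eed summit and of 9.40% of all windows. The Pearson correlation of log2 RPKM between the 2 Eed libraries was 0.23 over the 4445 windows and 0.64 over all 55385.

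**Figure D2:**
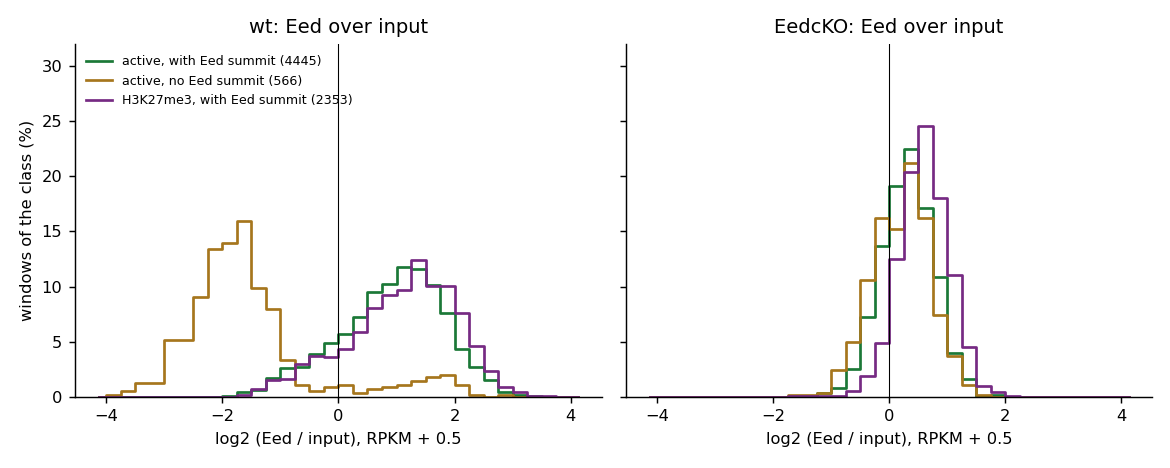
Share of windows (%) by log2 ratio of Eed to input in wild type (left) and EedcKO (right), in bins of 0.25, for 3 classes of promoter. In wild type the medians are 1.01 for the Eed-bound active promoters (green) and -1.74 for the active promoters without an Eed summit (brown), and in EedcKO they are 0.31 and 0.24.

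The direct ratio of EedcKO to wild type Eed carries the wild type values that chose the windows and is given as a description. Relative to the median of all tested promoters, which stood 0.88 higher in EedcKO by library totals, the median log2 ratio was -1.75 at the Eed-bound active promoters. It was -1.61 at the H3K27me3 promoters with an Eed summit and 1.01 at the active promoters without one. At least 2-fold lower in EedcKO were 3416 windows (76.9%) and 11 were at least 2-fold higher, where 30% and 22.6% of all tested promoters were lower and higher. By library totals alone, the median was -0.87, with 1898 windows (42.7%) lower and 207 higher, where 14.7% of all tested promoters were lower.

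Single promoters ranged widely around these medians. Rims2 (presynaptic scaffold, chromosome 15, 39197261 to 39199260) had the highest wild type Eed count, 436, and 67 in EedcKO, beside 10 and 20 input reads. Its relative log2 ratio was -3.11 (exact 95% Clopper-Pearson interval -3.53 to -2.76). Zfp664 had 420 and 74 Eed reads, Msl1 (a scaffold of a histone acetyltransferase complex) 412 and 71, and Klf13 (Krüppel-like factor) 385 and 54. Among promoters with at least 20 reads over both libraries and at least 2-fold over input in the higher one, the lowest ratios were at Usp9x (deubiquitinase, 195 and 18 reads, -3.78, interval -4.66 to -3.17), Psma7 (346 and 35 reads, -3.69, -4.29 to -3.24) and Jmy (actin nucleator and p53 cofactor, 224 and 27 reads, -3.42, -4.12 to -2.91). At the other end, Sirt6 (NAD-dependent deacylase) had 17 Eed reads in wild type and 67 in EedcKO, with 30 and 21 in input, so its wild type count lay below input in spite of the summit nearby. Apc2 (22 and 73 reads) and Dph2 (20 and 52) were alike in this.

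The Eed summits of wild type lay just downstream of the start. The median position was 175 bp downstream (quartiles 22 bp upstream and 324 bp downstream), 73.2% were downstream, and 51.3% were within 250 bp of the start. The nearest H3K27ac summit had its median 110 bp downstream, and the gap between both summits was 214 bp at the median, with 55.9% of the windows at 250 bp or less. Eed summits at the H3K27me3 promoters lay at a median of 137 bp downstream, a like place. The nearest EedcKO Eed summits, at 1026 of these windows, were more scattered, with a median of 227 bp downstream and 27.5% within 250 bp of the start. The rule asked for wild type Eed and H3K27ac summits within 1 kb of the start. Their closeness to the start and to each other therefore partly describes the choice, and was not set against an even spread of summits. EedcKO Eed summits were likewise counted only within 1 kb. Positions are counted per window, so a summit shared by overlapping windows counts for each. Near the limit of 1 kb, N4bp2l2 lay just inside with 20 wild type Eed reads, and Lsamp, also just inside, had 16. Serpini1 and Dap3, just outside, had 65 and 165.

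**Figure D3:**
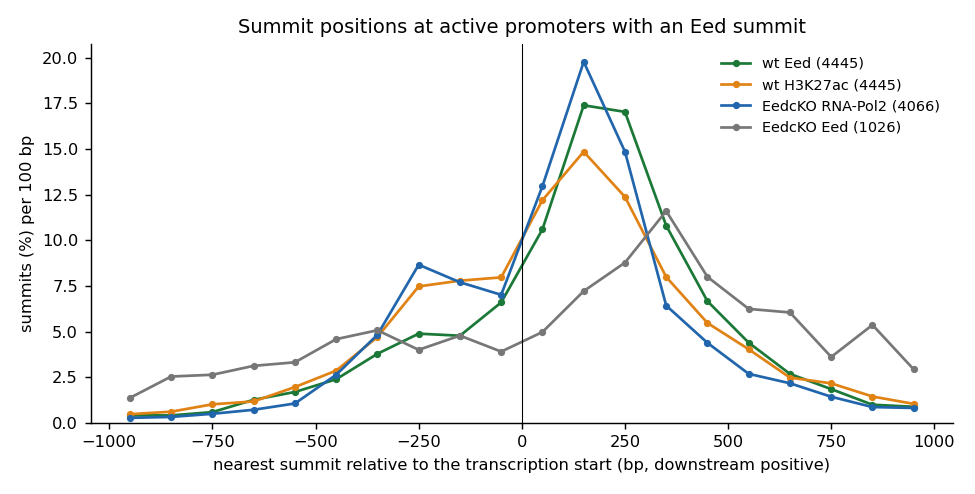
Position of the nearest summit relative to the transcription start (bp, downstream positive), at the Eed-bound active promoters with a summit of that library within 1 kb. Shares (%) in each 100 bp are of windows, each with its nearest summit, so a shared summit counts for each window. Wild type Eed, wild type H3K27ac and EedcKO RNA-Pol2 summits peak in the bin centred 150 bp downstream (17.4%, 14.8% and 19.8%), and EedcKO Eed summits are more spread, with 11.6% at most, 350 bp downstream.

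RNA-Pol2 was present over IgG in both genotypes. The median count was 86 in wild type (quartiles 66 and 112) and 206 in EedcKO (149 and 282), beside 24 and 39 in IgG. RNA-Pol2 over IgG had a median log2 ratio of 0.99 in wild type and 1.12 in EedcKO, with 2218 windows (49.9%) and 2547 (57.3%) at least 2-fold over IgG, where 11.3% and 11.8% of all tested promoters were. The active promoters without an Eed summit stood lower, at 0.69 (interval 0.63 to 0.75) and 0.76 (0.68 to 0.82), against 0.97 to 1.02 and 1.10 to 1.15 at the Eed-bound ones. Wild type H3K27ac over IgG was also lower at the promoters without an Eed summit, with a median of 1.29 against 1.53. Its part in the RNA-Pol2 difference was not tested. The 672 promoters with both an H3K27ac and an H3K27me3 summit stood at 1.24 in wild type RNA-Pol2 over IgG and 1.07 in EedcKO. A wild type RNA-Pol2 summit lay within 1 kb of 33.3% of the Eed-bound active promoters (31.9% to 34.7%) and of 19.8% (16.7% to 23.3%) of the active promoters without an Eed summit. EedcKO RNA-Pol2 summits lay at 91.5% and 69.1% and at 19.7% of all windows, but the EedcKO list holds 25930 summits and the wild type list 3716, so the shares of both genotypes are not compared. The Pearson correlation of log2 RPKM between both RNA-Pol2 libraries was 0.84 over the 4445 windows.

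Between genotypes, RNA-Pol2 relative to the median promoter was higher in EedcKO at the Eed-bound active promoters by a median log2 ratio of 1.03, and so was IgG, by 0.56. At least 2-fold higher in RNA-Pol2 were 2387 windows (53.7%) and none was 2-fold lower, where 12.2% and 7.86% of all tested promoters were higher and lower. In IgG 989 windows (22.2%) were at least 2-fold higher and 17 lower, where 7.33% and 6.77% of all tested promoters were. By library totals alone, without the shift of -0.41 of the median promoter, 500 windows (11.2%) were at least 2-fold higher and 3 lower, where 2.42% of all tested promoters were higher. With IgG subtracted in RPKM from each RNA-Pol2 library, 883 of 4268 windows (20.7%) were at least 2-fold higher, a share like the 20.5% of all promoters tested that way. By that measure 335 windows were at least 2-fold lower, and the median log2 ratio was 0.31. Active promoters without an Eed summit had a median of 0.79 relative to the median promoter, and 0.41 in IgG. The rise was not particular to the Eed-bound active promoters. Of the 672 promoters with both an H3K27ac and an H3K27me3 summit, 336 (50%) were at least 2-fold higher in RNA-Pol2 and none lower. The interval of their median relative log2 ratio was 0.97 to 1.04, and their median in IgG was 0.81. The part of the IgG difference in the RNA-Pol2 ratio was not tested further.

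By the same limits over IgG, Emx2, a homeobox factor of the dorsal telencephalon, had the highest RNA-Pol2 ratio, with 16 reads in wild type and 138 in EedcKO beside 17 and 27 in IgG (relative log2 ratio 2.72, interval 2.14 to 3.74). It also had 387 wild type H3K27me3 reads, so its promoter did not carry the active mark alone. Scaf11 (splicing-related factor) followed with 69 and 345 RNA-Pol2 reads (2.07, 1.73 to 2.50), Smu1 (spliceosome component) with 59 and 266 and Bora (activator of Aurora A) with 40 and 181. The lowest ratios were at Alkbh3 (DNA repair dioxygenase, 110 and 117 reads, -0.12, interval -0.52 to 0.26), Guk1 (guanylate kinase, 99 and 114 reads) and Ccnh (cyclin H, 78 and 90 reads). Lsamp, which did not meet these limits, was lower, with 76 and 75 reads. Eed itself had 89 and 246 RNA-Pol2 reads (1.23, 0.89 to 1.61), with 20 and 50 in IgG, and 121 and 40 Eed reads. Where the deletion lies is not known, so these reads do not check it.

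The 2 histone libraries labelled EedcKO went against their labels at these promoters. The library labelled EedcKO H3K27ac had a median of 41 reads and a log2 ratio to IgG of -1.04, with 47 windows at least 2-fold over IgG, where 6.22% of all tested promoters were. The library labelled EedcKO H3K27me3 had a median of 61 reads and stood at 0.55 over IgG, with 952 windows (21.4%) at least 2-fold over it, against 5.85% of all. At the H3K27me3 promoters with an Eed summit the order was the other way, with 288 reads in the library labelled EedcKO H3K27ac and 41 in the one labelled EedcKO H3K27me3. Summits of the library labelled EedcKO H3K27ac (10164 called) lay near 2.23% of the Eed-bound active promoters, 82.5% of the H3K27me3 promoters and 5.92% of all windows. For the library labelled EedcKO H3K27me3 (671 called) the shares were 8.53%, 0.55% and 1.18%. As the lists differ in length, the shares of both libraries are not compared with each other. Over the 4445 windows, Pearson's r of log2 RPKM to the library labelled EedcKO H3K27ac was 0.78 for H3K27me3 of wild type and 0.27 for its H3K27ac. To the library labelled EedcKO H3K27me3 it was 0.35 for H3K27me3 of wild type, 0.52 for its H3K27ac and 0.82 for its RNA-Pol2. Whether the 2 libraries were exchanged was not tested beyond these values.

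Taken by label, H3K27ac in EedcKO was at a median relative log2 ratio of -1.03, with 2303 windows at least 2-fold lower and 60 higher, where 11.7% and 18.2% of all tested promoters were. H3K27me3 was at 0.47, with 839 windows higher and 89 lower, where 6.8% and 13% of all were. Leaving out the 192 windows with more H3K27me3 took the 60 to 5 and the 89 to 34. Set against the other wild type mark, the library labelled EedcKO H3K27me3 was at -0.58 relative to wild type H3K27ac, with 826 windows lower and 15 higher (6.17% and 13.1% of all tested). The library labelled EedcKO H3K27ac was at 0.03 relative to wild type H3K27me3, with 55 windows lower and 56 higher (4.49% and 2.55% of all). No direction of either mark between genotypes at the Eed-bound active promoters can therefore be read from the labels. Emx2 shows this in 1 gene: it had 387 reads in wild type H3K27me3 and 31 in the library labelled EedcKO H3K27me3, but 74 in wild type H3K27ac and 603 in the library labelled EedcKO H3K27ac.

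By function, the share of genes with an Eed-bound active promoter differed widely between gene lists. Protein-coding genes made up 82.9% of the windows (3683), beside 67.5% of the active promoters without an Eed summit and 38.4% of all windows. There were also 300 windows of lncRNA, 38 of miRNA and 17 of snoRNA genes. Of 21226 protein-coding genes measured, 17.3% had such a promoter. The share was 53.1% for proteasome genes (17 of 32, Wilson interval 36.4% to 69.1%), 49.3% for splicing factors (35 of 71), 46.5% for translation factors (20 of 43) and 46.2% for cytosolic ribosomal proteins (36 of 78). Mitochondrial ribosomal proteins (30 of 77), the respiratory chain (23 of 60) and DNA replication (14 of 45) had 39.0%, 38.3% and 31.1%. Mitosis genes (10 of 40) had 25% (Wilson interval 14.2% to 40.2%). Genes of cell cycle entry and arrest (6 of 29) had 20.7% (9.85% to 38.4%), and both intervals include the 17.3%. Lists of cell identity lay on both sides of the 17.3%. The neurogenic list (5 of 20) had 25% (Wilson interval 11.2% to 46.9%) and the neuron list (8 of 34) 23.5% (12.4% to 40.0%). Cortical progenitor genes (2 of 28) had 7.14% (1.98% to 22.6%) and ventral forebrain genes (2 of 24) 8.33% (2.32% to 25.8%), and these 4 intervals include the share of all protein-coding genes. None of 32 midbrain, hindbrain and spinal cord genes had such a promoter, which allows a share of up to 10.7%. None of the 14 endothelial, 12 erythroid and 14 microglial genes had one either, which allows up to 21.5%, 24.2% and 21.5%. Lists of active genes hold more H3K27ac summits, which the rule used, so a share describes the choice. Of the 20 proteasome genes with an H3K27ac summit, 17 were in the set, beside 3680 of all 4611 protein-coding genes with one. Counted the same way, 35 of 42 splicing, 36 of 45 cytosolic ribosomal, 30 of 38 mitochondrial ribosomal and 23 of 31 respiratory chain genes were in it. Among genes with an H3K27ac summit, these lists thus lay near the share of all protein-coding genes.

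**Figure D4:**
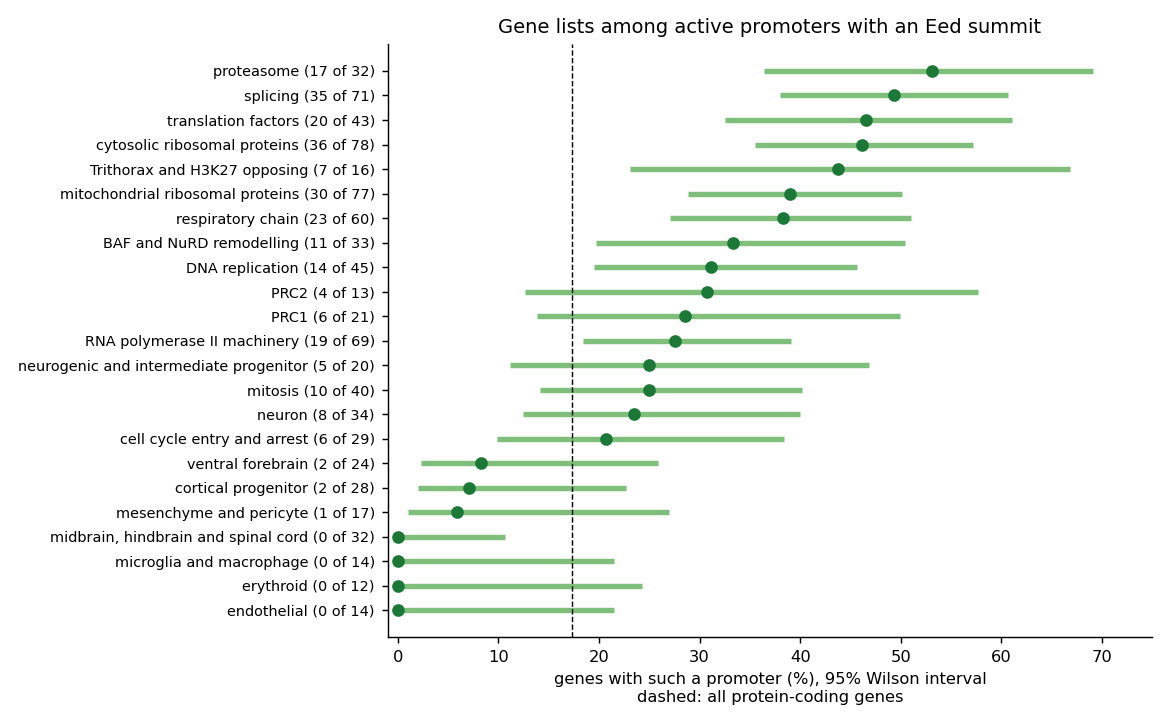
Share (%) of the measured genes of 23 lists that have an Eed-bound active promoter, with 95% Wilson intervals that cover counting only. The dashed line is the 17.3% of all protein-coding genes, and proteasome and splicing genes are at 53.1% and 49.3%.

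Of the Polycomb and opposing machinery, 4 of 13 PRC2 genes had an Eed-bound active promoter: Eed, Ezh2 (the methyltransferase), Rbbp4 (a histone-binding subunit) and Phf1 (an accessory reader protein). Ezh2 had 217 Eed reads in wild type and 44 in EedcKO, Rbbp4 126 and 51, and Phf1 137 and 73, with input between 14 and 29 in all 3. Suz12 was left out because no H3K27ac summit lay near, though it had 186 and 46 Eed reads. The 6 PRC1 genes of 21, among them Ring1 (a ubiquitin ligase subunit, 181 and 44 reads) and Pcgf2 (130 and 57), had a median of 114.5 Eed reads in wild type and 44.5 in EedcKO. Genes that oppose Polycomb were in the set as well, 7 of 16. They included Ash1l (methyltransferase, 204 and 48), Kmt2a (methyltransferase, 173 and 61) and Ep300 (the acetyltransferase that places H3K27ac, 183 and 43). The 7 had medians of 136 Eed reads in wild type and 48 in EedcKO. Shares were 30.8% for PRC2 (Wilson interval 12.7% to 57.6%) and 28.6% for PRC1 (13.8% to 49.96%). Both intervals include the 17.3% of all protein-coding genes. For the opposing genes the share was 43.75% (23.1% to 66.8%), above the 17.3%. Among genes with an H3K27ac summit, 4 of 4 PRC2, 6 of 7 PRC1 and 7 of 9 opposing genes were in the set. Of all protein-coding genes with such a summit, 3680 of 4611 were.

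Within the set, median wild type Eed reads ranged from 50 to 125 over 5 gene lists and EedcKO Eed reads from 37 to 44. The medians in wild type were 50 over 23 respiratory chain windows, 71 over 36 cytosolic ribosomal protein windows, 80 over 17 proteasome windows, 111 over 20 translation factor windows and 125 over 35 splicing windows. In EedcKO the same lists had 40, 40.5, 37, 43 and 44, and wild type input had 25, 25.5, 28, 27 and 28. These 5 are part of the 23 lists. Over all lists with a window in the set, wild type medians ran from 21 (1 mesenchymal window) to 140 (11 windows of BAF and NuRD chromatin remodelling). EedcKO medians ran from 35 (10 mitosis windows) to 53 (5 neurogenic windows). Cytosolic ribosomal promoters ran from Rpl23 with 23 reads to Rpl7 with 171, and Rpl7 had 38 in EedcKO. Splicing promoters ran from Hnrnpc with 30 to Hnrnpa0 with 285, and Sf1, the branch-point binding factor, had 205 in wild type and 35 in EedcKO. Of the respiratory chain, Ndufb5 and Sdhd had 43 and 41 reads in wild type and 44 and 46 in EedcKO, and the intervals of their relative ratios, -1.04 to 0.24 and -0.91 to 0.38, include 0. RNA-Pol2 in EedcKO had medians of 160, 203.5, 165, 237 and 258 and relative log2 ratios of 0.91, 1.16, 0.89, 1.26 and 1.14 for the same 5 lists.

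Several genes of the developing forebrain in the set carried much H3K27me3. Of 34 neuron genes 8 were in it, among them Sox11 (a neuronal SOX factor), with 273 Eed reads in wild type, 34 in EedcKO and 37 in wild type H3K27me3. Cux1 and Pou3f2, factors of upper-layer neurons, had 291 and 228 wild type Eed reads but 239 and 242 in wild type H3K27me3. Of 20 neurogenic genes 5 were in it, with Btg2 (an antiproliferative factor) at 51 and 44 Eed reads and Dll1 (a Notch ligand) at 68 and 53. Dlx5, a homeobox factor of ventral forebrain, had 70 and 53 Eed reads, 486 in wild type H3K27me3 and 47 in wild type H3K27ac. Of the markers checked, 3 of 6 forebrain markers had a wild type H3K27ac summit, 3 had an H3K27me3 summit and only 1, Emx2, was in the set. The 6 had medians of 54 reads in wild type H3K27ac and 327 in H3K27me3. Other neural tube, endothelial, erythroid and microglial markers had no H3K27ac summit. Col1a1 was the only mesenchymal marker with an H3K27ac summit, with 58 reads in H3K27ac and 404 in H3K27me3. In tissue, fewer cells with a mark and less of the mark per cell cannot be told apart.

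Wild type Eed reads were higher with 2 properties that the rule did not use. Over 4 equal groups of promoters, from low to high wild type RNA-Pol2 over IgG, the median wild type Eed count was 88.5, 101, 112 and 125, while input stayed at 26 to 27 and EedcKO Eed at 42 to 45. Across these groups wild type RNA-Pol2 rose from 61 to 125 and wild type IgG, the lower part of the grouping ratio, fell from 32 to 17. The wild type Eed library itself was used by the rule. Over 4 groups by CpG ratio of the 3146 matched promoters, it was 84, 98, 116 and 124.5, with input again at 26 to 27 and EedcKO Eed at 43 to 44. RNA-Pol2 in wild type was 84 to 89 across the CpG groups. From the lowest to the highest CpG group, EedcKO RNA-Pol2 rose from 186 to 222 and wild type IgG fell from 27 to 22. The CpG groups therefore also differed in RNA-Pol2 against IgG. H3K27ac reads ran from 88 to 105 by RNA-Pol2 group and between 93 and 99 by CpG group. The correlation of wild type Eed with wild type RNA-Pol2 across the 4445 windows was 0.21 and with H3K27ac 0.20, both weak. Base composition, which can also affect how well DNA is amplified and sequenced, moved with the Eed reads, and its part was not tested.

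**Figure D5:**
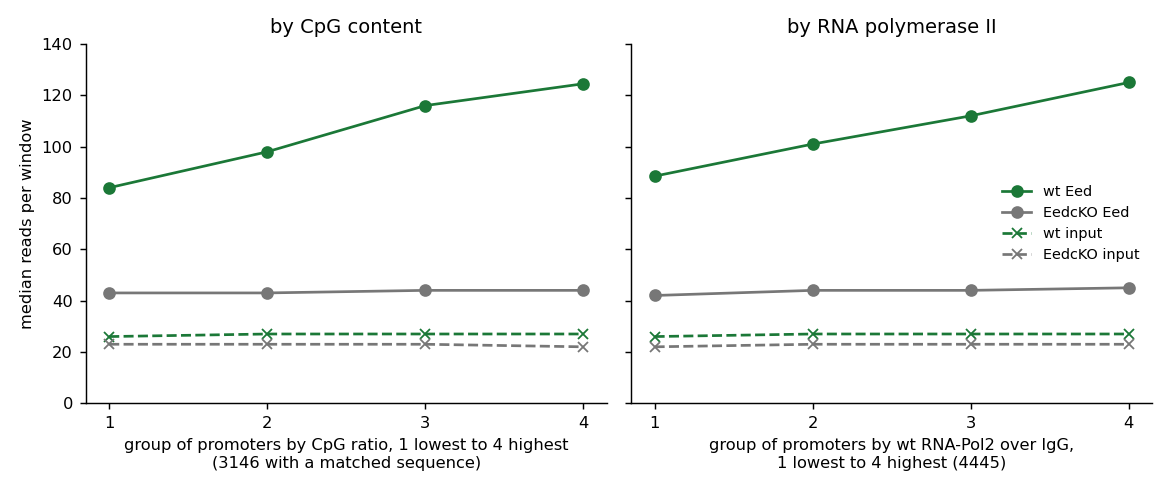
Median reads per window of Eed (circles) and input (crosses) in wild type (green) and EedcKO (grey), in 4 equal groups of promoters by CpG ratio (left) and by wild type RNA-Pol2 over IgG (right), from the lowest (1) to the highest (4). Wild type Eed goes from 84 to 124.5 and from 88.5 to 125, and the other 3 lines stay between 22 and 45.

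Many of these starts had a neighbour on the other strand. An annotated start on the opposite strand lay within 1 kb of 44.8% of the Eed-bound active promoters (Wilson interval 43.3% to 46.2%), 35.2% (31.3% to 39.2%) of the active promoters without an Eed summit, and 21.7% of the H3K27me3 promoters with one, beside 6648 of all 55385 windows. The 1990 windows with such a start had medians of 107 wild type Eed reads and 226.5 EedcKO RNA-Pol2 reads, and the 2455 others 105 and 192. Rpl7a and Med22 (a Mediator subunit) are such a pair, whose windows largely share their reads, with 67 and 69 Eed reads in wild type and 48 and 46 in EedcKO. Because of such pairs the 4445 windows are not independent: 2116 overlapped another, and they fell into 3349 separate regions. The Wilson intervals count each window by itself and do not allow for this. Promoters of lncRNA genes had medians like those of protein-coding genes, with 103 and 106 wild type Eed reads. The 38 miRNA windows had 123.5 and the 17 snoRNA windows 67.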

How the data were processed

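Promoter read counts and peak summits of 12 libraries were used. Per the submitters' processing notes, the build was mm10 and the tools ChIPseeker 1.22.1, deepTools 3.4.0, MACS2 2.2.7.1 and Bowtie2 2.4.1. The sources used here do not say how reads were filtered. The authors named their promoter tables for RPKM, but the deposited values are whole-number counts with unequal totals (948955 to 3842779 per library), so they were treated as counts. The plan had assumed RPKM, and the rules were kept after conversion. The deposited summit lists, called in each library by itself, carry a −log10 score whose kind (p-value or q-value) is not stated.

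Counts were divided by window length in kb and by the library's promoter total (RPKM). Ratios were log2 with a pseudocount of 0.5 RPKM, which understates changes of low promoters. Comparisons took windows whose 2 libraries averaged 1 RPKM or more, and all 4445 passed in each comparison. Ratios between genotypes are relative to the median tested promoter. The size rule was 2-fold.

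The promoters, lists and motifs were chosen with earlier results of these data known. Named genes were protein-coding, not Gm, Rik or Mir models, and did not overlap one already named. They were the 6 highest Eed counts, the 6 lowest and 6 highest ratios of Eed and RNA-Pol2 (at least 20 counts over both libraries and 2-fold over the control in the higher one), the 3 of each list with most wild type RNA-Pol2, every PRC2 gene, and 3 genes on each side of the 1 kb limit. Others, such as the ends of a list's range, were named after their values were seen. Gene types and promoter sequences came from RefSeq, matched by symbol. Intervals of medians are 95% order-statistic intervals across windows, which share a library. All intervals cover counting error or window spread only, as PCR copies cannot be told from separate molecules. The calculations (numpy 2.4.6, pandas 2.3.3, scipy 1.17.1) were tested on simulated data. Scaling, filters, pseudocounts and summit distances were varied.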

Additional observations from a re-analysis of the deposited data

Results flagged for a closer look

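Both histone marks lay on opposite sides of IgG in the libraries of the 2 genotypes at the Eed-bound active promoters. The median log2 ratio of H3K27ac to IgG was 1.53 in wild type and -1.04 in the library labelled EedcKO. That of H3K27me3 was -0.23 in wild type and 0.55 in the library labelled EedcKO. With 1 library each, the difference was not tested.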

How the results depend on the processing

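Of 67 alternative values for the counts and summaries given above, 57 stayed within 1.5 times, or within the interval, of the value reported. Of the values of single genes and other summaries, 218 stayed, 286 moved and 5 reversed. With the control subtracted, 77 of the RNA-Pol2 ratios of named genes moved and 4 stayed, and 51 of their Eed ratios moved and 24 stayed. Without the shift, 74 and 80 moved and 11 and 5 stayed, and with a pseudocount of 1 RPKM all 85 of each stayed. By library totals alone, the count of windows at least 2-fold lower in EedcKO Eed was 1898 (14.7% of all promoters), that of windows higher in RNA-Pol2 500 (2.42% of all), that lower in the library labelled EedcKO H3K27ac 4236 (51.6% of all) and that higher in the library labelled EedcKO H3K27me3 3153 (41.0% of all). With the control subtracted, 883 windows were higher and 335 lower in RNA-Pol2 (20.5% of all promoters higher), and 1501 higher and 661 lower in H3K27me3 (21.6% of all higher). For Eed, 2942 were then lower and 477 higher (42.9% of all lower), where 11 were higher without the subtraction. With the 2 histone libraries labelled EedcKO exchanged, an alternative chosen after the data were seen, the counts were 826 for H3K27ac and 56 for H3K27me3. The share with an EedcKO RNA-Pol2 summit was 87.5% at 500 bp and 92.3% at 2 kb. The number of windows was 3364 at 500 bp, 4895 at 2 kb and 3146 with the upper part of each summit list by score. With the control subtracted, single genes turned to a relative log2 ratio of 0.10 at Mrps34, 0.47 at Mrpl18 and 0.029 at Med22 for Eed, and of -0.23 at Hnrnph1 and -0.0041 at Mcm4 for RNA-Pol2. Where the cause is not a fixed shift or a subtraction, it was not tested. Counting 1 window for each run of overlapping windows, also chosen after the data were seen, moved none of the counts of Eed, RNA-Pol2 and histone marks by more than 1.5 times. No paired analysis was possible because each group has 1 library, and for the same reason no library could be left out.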

Other observations

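The X chromosome held few Eed-bound active promoters. They were 30 of 2624 windows on X (1.14%) and 4415 of 51155 on autosomes (8.63%). Wild type H3K27ac summits lay at 1.30% of X windows and 11.0% of autosomal ones, wild type Eed summits at 17.1% and 30.6%, and EedcKO RNA-Pol2 summits at 6.86% and 21.0%. The 30 windows on X had a median of 18 wild type input reads and 57.5 wild type Eed reads, and the autosomal ones 27 and 106. The sex of the embryos is not given, and its part was not tested.

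By the stem of the gene symbol, chosen after the values were seen and not tested, the share with such a promoter was 47.2% for Cep genes (centrosomal proteins, 17 of 36), 45.2% for Ube genes (ubiquitin enzymes, 19 of 42) and 40% for Vps genes (vacuolar sorting, 14 of 35), beside 17.3% of all protein-coding genes. It was nearer to that share for Zfp genes (zinc fingers, 22.8%), Tmem genes (transmembrane proteins, 20.6%) and Med genes (Mediator, 20%). None of 1108 Olfr genes (olfactory receptors), 351 Vmn genes (vomeronasal receptors) or 53 Krt genes (keratins) had such a promoter, and 50 of 373 Slc genes (transporters, 13.4%) did.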
